A study of Rattus norvegicus with 21 samples.

Results

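Liver sinusoidal endothelial cells line the capillaries of the liver. The genes described here are 5 markers of these cells, Stab1, Stab2, Dnase1l3, Lyve1 and Fcgr2b, chosen by name as established markers of the cell type. The choice was made with earlier results of these data known. All 5 had a probe set annotated to that symbol alone, among 14218 genes with such a probe set. Lyve1 had 2 probe sets and each of the other genes 1. The probe set with the highest mean over 21 arrays stood for each gene.

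Intrahepatic cholangiocarcinoma, which arises from the biliary tree within the liver, was studied in 9 male young adult Fischer 344 rats, with no treatment named. BDEneu tumours, grown from a single line of rat bile duct cells that carries an activated neu (Erbb2) oncogene, were taken at day 10, day 15 or day 25, from 3 animals per time point. The right liver lobe of each of these 9 rats, labelled as normal, and a peritoneal metastasis from each of the 3 rats of day 25 completed 7 groups of 3 arrays, 1 array per rat and tissue. Every liver sample thus came from a rat that carried a tumour. The descriptions of the day 25 livers name day 55, against day 25 in their titles and source names, and day 25 was used. All values are RMA expression levels on the log2 scale, so a difference of 1 is a 2-fold change, and they are called higher or lower where limma gave a Benjamini-Hochberg adjusted p under 0.05 over all 14218 genes.

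Unlike most capillaries, liver sinusoids have open pores and no continuous basement membrane, and their lining cells clear waste molecules from the blood by endocytosis. Stab1 and Stab2 encode stabilin-1 and stabilin-2, large scavenger receptors. Stabilin-2 also takes up hyaluronan, a matrix polysaccharide. Lyve1 encodes a second hyaluronan receptor, which is found on lymphatic endothelium too. Fcgr2b encodes the inhibitory Fc receptor that takes up immune complexes in sinusoids and is also expressed by macrophages and B cells. Dnase1l3 encodes a secreted nuclease that degrades DNA in the circulation. Stab1 and Lyve1 are also expressed by some tissue macrophages, and Dnase1l3 by some macrophages and dendritic cells. When blood vessels form in other tissues or when sinusoids lose their pores, sinusoidal markers are typically low.

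The arrays were alike in scale, with medians of 5.98 to 6.06 and mean correlations with the other arrays of a group of 0.959 to 0.994. Erbb2 and the bile duct keratin gene Krt19 checked the labels. Erbb2 lay between 8.72 and 10.8 in every tumour and metastasis and between 4.98 and 5.69 in every liver, and Krt19 was higher in tumour by 6.31 (SE 0.26, adjusted p = 3.3e-12). Tumour pieces also carried hepatocyte transcripts, with means over 14 hepatocyte genes of 7.78 to 11.51 in tumours, 5.97 to 7.06 in metastases and 12.17 to 12.77 in livers. The lowest tumour was that of rat 7 (day 25 replicate 1). In whole tissue, fewer cells of a type and less RNA per cell cannot be told apart.

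The regions upstream of the genes' start sites are shown for the 3 markers that were lower in tumour, and for Stab1, which was not. They are the 250 bases before the start in the RefSeq promoter table (build GRCr8, written 5′ to 3′ on the strand of the gene), which held 4 of the 5 genes and not Fcgr2b. Capitals mark matches to 3 motifs of 6 letters searched on both strands, AGATAA for GATA factors, AGGAAG for ETS factors and TGCTGA for MAF factors.
Stab2, chr7:23320563-23320812, minus strand: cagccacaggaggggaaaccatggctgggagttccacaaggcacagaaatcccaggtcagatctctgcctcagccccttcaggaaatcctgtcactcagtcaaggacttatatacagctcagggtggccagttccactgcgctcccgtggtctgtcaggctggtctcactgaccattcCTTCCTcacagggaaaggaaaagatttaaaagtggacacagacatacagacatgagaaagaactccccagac
Dnase1l3, chr15:19352302-19352551, plus strand: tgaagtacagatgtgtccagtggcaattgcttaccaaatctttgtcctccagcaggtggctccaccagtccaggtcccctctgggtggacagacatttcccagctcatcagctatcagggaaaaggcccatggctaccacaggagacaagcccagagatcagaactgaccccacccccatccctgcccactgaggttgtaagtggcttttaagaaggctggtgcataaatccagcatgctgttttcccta
Lyve1, chr1:174410978-174411227, minus strand: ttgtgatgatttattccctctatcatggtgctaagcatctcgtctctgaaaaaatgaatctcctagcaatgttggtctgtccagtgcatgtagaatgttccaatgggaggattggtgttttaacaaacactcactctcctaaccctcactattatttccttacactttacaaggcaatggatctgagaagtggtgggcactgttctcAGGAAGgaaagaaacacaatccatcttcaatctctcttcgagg
Stab1, chr16:6367360-6367609, minus strand: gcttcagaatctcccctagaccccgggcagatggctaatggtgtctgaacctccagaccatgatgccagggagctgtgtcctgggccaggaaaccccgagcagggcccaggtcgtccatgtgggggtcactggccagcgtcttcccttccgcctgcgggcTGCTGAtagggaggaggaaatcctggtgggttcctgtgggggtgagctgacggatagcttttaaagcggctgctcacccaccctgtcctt
AGGAAG was found in Lyve1 from position -43, counted from the start site, and on the opposite strand in Stab2 from -72, where it reads CTTCCT. Of all 33469 promoters, 29.5% held it in the same window. TGCTGA was found only in Stab1 among the 4, from -90, against 15.1% of all promoters. AGATAA was found in 0 of the 4 and in 10.3% of all. The 3 genes that were lower in tumour thus shared no searched motif among all 3. The matches are a description of these letters and were not tied to any measured binding.

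The comparison of tumour with liver asked whether the sinusoidal genes distinguish the tumour from the organ around it. The 5 markers did not move as a group. Stab2, Dnase1l3 and Lyve1 were lower in tumours, Fcgr2b was higher, and Stab1 was not called. Over all days 4 of the 5 markers were called, 3 lower and 1 higher, where 37.8% of all genes were called lower, 36.8% higher and 74.6% in either direction. With so many genes changed, the count says little about the markers, and the sizes are given for each gene. At days 10, 15 and 25 the counts called were 3, 4 and 3 of the 5, where 58.4, 51.8 and 50.1% of all genes were.

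Stab2 showed the widest gap. In the livers its level was 8.46, 8.87 and 8.96 at day 10, 9.09, 9.19 and 9.31 at day 15, and 8.9, 9.76 and 9.54 at day 25. In the tumours it was 6.95, 5.93 and 6.48 at day 10, 5.96, 7.02 and 6 at day 15, and 5.7, 6.67 and 6.88 at day 25. Every tumour lay below every liver, which held for 12.4% of all genes, and within days 10, 15 and 25 for 36.5, 30 and 25.6%. Stab2 fell by 2.72 on the log2 scale over all days, a 6.6-fold difference (SE 0.19, adjusted p = 2.4e-09), and was lower by -2.31, -2.87 and -2.99 at days 10, 15 and 25 (SE 0.33 each, adjusted p = 2.6e-05, 3.6e-06 and 2.8e-06). These calls were made against 28, 23.6 and 22.4% of all genes called lower at the 3 days. In 4 of the 9 tumours the level was below the median of all probe sets on that array, close to background, where a fold is understated.

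Dnase1l3 was lower as well. The livers lay within a narrow range, at 9.8, 10.14 and 10.23 at day 10, 10.24, 10.39 and 9.98 at day 15, and 9.91, 10.2 and 10.42 at day 25. The tumours were at 8.89, 8.1 and 8.78, then 7.93, 8.69 and 7.11, and then 6.15, 7.78 and 8.34. No tumour reached the lowest liver, and the tumours were spread more widely than the livers, with SDs of 0.43, 0.79 and 1.14 against 0.22, 0.2 and 0.26 (n = 3 each). Dnase1l3 fell by 2.17 over all days, or 4.51-fold (SE 0.28, adjusted p = 2.3e-06). By day it was at -1.47, -2.3 and -2.76 (SE 0.48, adjusted p = 0.015, 8e-04 and 0.00017). The day 10 call depended on the tumour of rat 2. Without it the difference was -1.22 (adjusted p = 0.07).

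Lyve1 fell least of the 3. Livers were at 10.29, 10.38 and 10.42 at day 10, 10.28, 10.53 and 10.55 at day 15, and 11.42, 10.92 and 10.93 at day 25. Tumours were at 9.82, 9.44 and 10.02, at 8.75, 9.82 and 9.06, and at 8.07, 9.23 and 9.72. All tumours were again below all livers, though the gap at day 10 was small. Lyve1 fell by 1.31 over all days, or 2.48-fold (SE 0.21, adjusted p = 3e-05). It was not called at day 10 (-0.6, SE 0.36, 95% interval -1.37 to 0.16, adjusted p = 0.16), and was called at day 15 (-1.24, adjusted p = 0.0091) and day 25 (-2.08, adjusted p = 0.00018). In a fit of the day 10 arrays alone it was called (adjusted p = 0.0061), and without the tumour of rat 4 the day 15 call was lost (-1.01, adjusted p = 0.051). The other Lyve1 probe set followed the first closely (r = 0.993 over 21 arrays) and gave -1.48 over all days (SE 0.23).

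Fcgr2b went the other way. Its livers were at 9.67, 9.81 and 9.9 at day 10, 10.23, 10.09 and 10.09 at day 15, and 10.48, 10.79 and 10.8 at day 25. Its tumours were at 11.3, 11.41 and 11.45 at day 10, 11.39, 10.89 and 10.8 at day 15, and 10.56, 10.55 and 10.98 at day 25. All tumours were above all livers at days 10 and 15, as for 36.8 and 32.4% of all genes, and the groups overlapped at day 25. Fcgr2b was higher in tumour by 1.59 at day 10, or 3.01-fold (SE 0.19, adjusted p = 3.4e-06), and by 0.89 at day 15 (adjusted p = 9e-04). At day 25 it differed by 0.01 (95% interval -0.39 to 0.41, adjusted p = 0.98). In the same days 30.4, 28.2 and 27.7% of all genes were called higher. Several Fc receptor genes have similar sequences, and whether this probe set also reads a related transcript was not tested.

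Stab1 was the marker for which no difference was called. In the livers it lay above 59.5 to 71.7% of the probe sets of an array, against 85.5 to 93.9% for Stab2. A liver level so near the array median leaves less room to show a fall. Its livers were at 6.54, 6.92 and 7.17, at 7.21, 7.15 and 7.22, and at 6.84, 7.31 and 7.34 at the 3 days. Its tumours were at 7.45, 7.67 and 7.21, at 7.72, 7.39 and 7.73, and at 6.5, 7.22 and 7.92. All tumours of days 10 and 15 were above the livers of the same day, as were 36.8 and 32.4% of all genes, and the day 25 tumours lay on both sides. The difference over all days was 0.35 (SE 0.25, 95% interval -0.18 to 0.88, adjusted p = 0.22), and by day 0.57, 0.42 and 0.05 (SE 0.43 each). Rat 7 had the lowest Stab1 of the tumours and of the metastases. Without the 3 arrays of rat 7, an alternative added after the data were seen, Stab1 was called higher in tumour over all days (0.41, SE 0.12, adjusted p = 0.006). It was also called when only the day 10 or only the day 15 arrays were fitted (adjusted p = 0.021 and 0.026). The lower bound of its interval over all days was -0.18, whereas the interval of Stab2, the other stabilin gene, ran from -3.13 to -2.31.

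**Figure D1:**
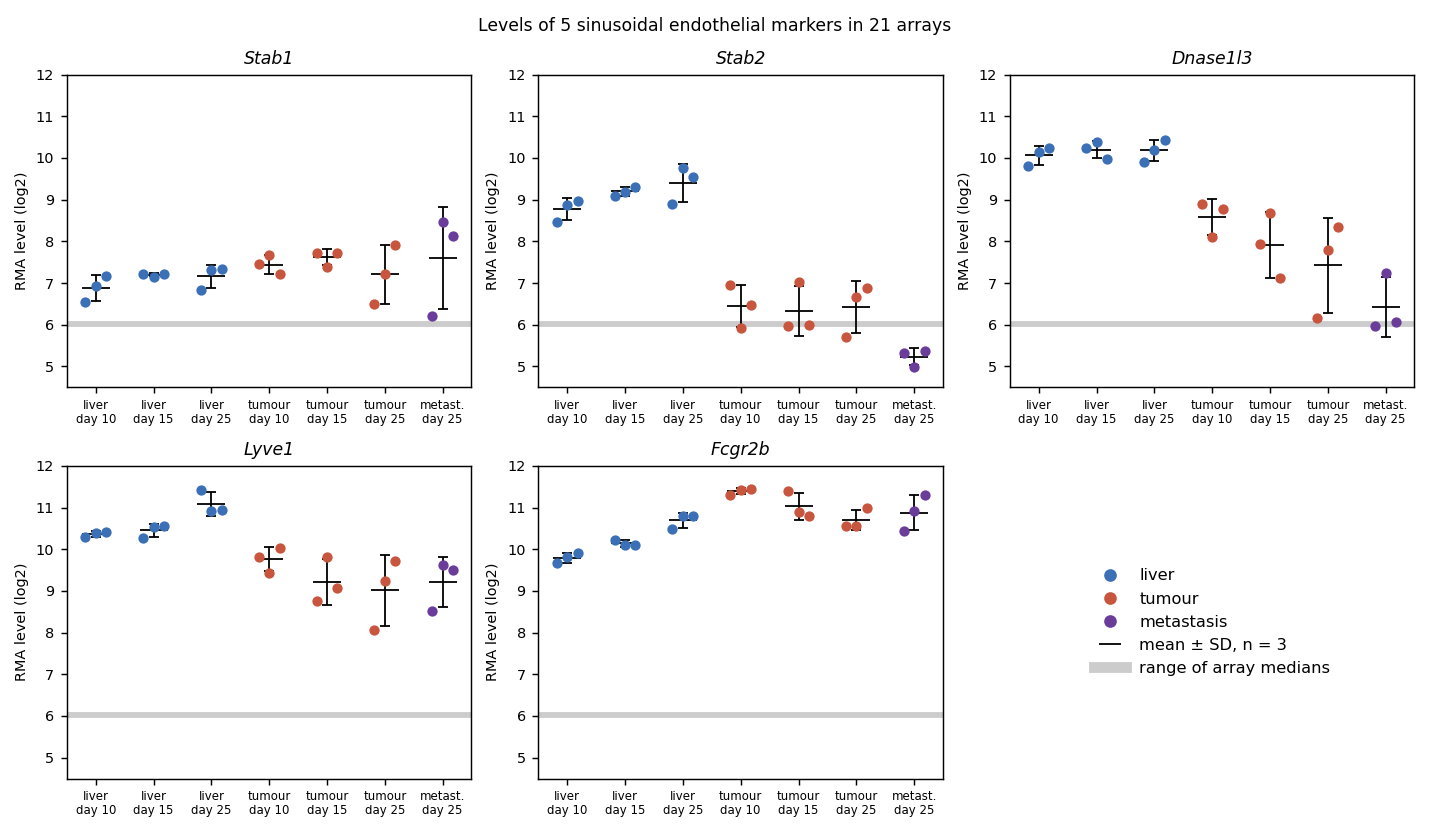
RMA level (log2, vertical axis) of each marker in the 7 groups (horizontal axis). Points are single arrays, bars the mean ± SD of 3 arrays, and the grey band the range of the array medians (5.98 to 6.06). Stab2, Dnase1l3 and Lyve1 lie lower in every tumour than in any liver, Fcgr2b starts higher in tumours and meets the liver at day 25, and Stab1 overlaps.

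Tumour and liver of the same rat were also paired. For Stab2, Dnase1l3 and Lyve1 every tumour lay below every liver, as for 12.4% of all genes. Any pairing of these arrays then gives 9 of 9 and adds no separate support. The tumour was lower in 9 of 9 rats for Stab2 (differences of -3.31 to -1.52, median -2.94), for Dnase1l3 (-3.76 to -0.91, median -2.09) and for Lyve1 (-3.35 to -0.41, median -1.2). For Fcgr2b the tumour was higher in 8 of 9 rats, the exception being rat 8 of day 25 at -0.24. For Stab1 it was higher in 7 of 9, the exceptions being rats 7 and 8 of day 25 at -0.34 and -0.09. The members also kept an order within animals. Dnase1l3 fell more than Lyve1 in 9 of 9 rats, and Stab2 more than Dnase1l3 in 8 of 9. Rat 7 was the animal in which Dnase1l3 and Lyve1 fell furthest, to -3.76 and -3.35.

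**Figure D2:**
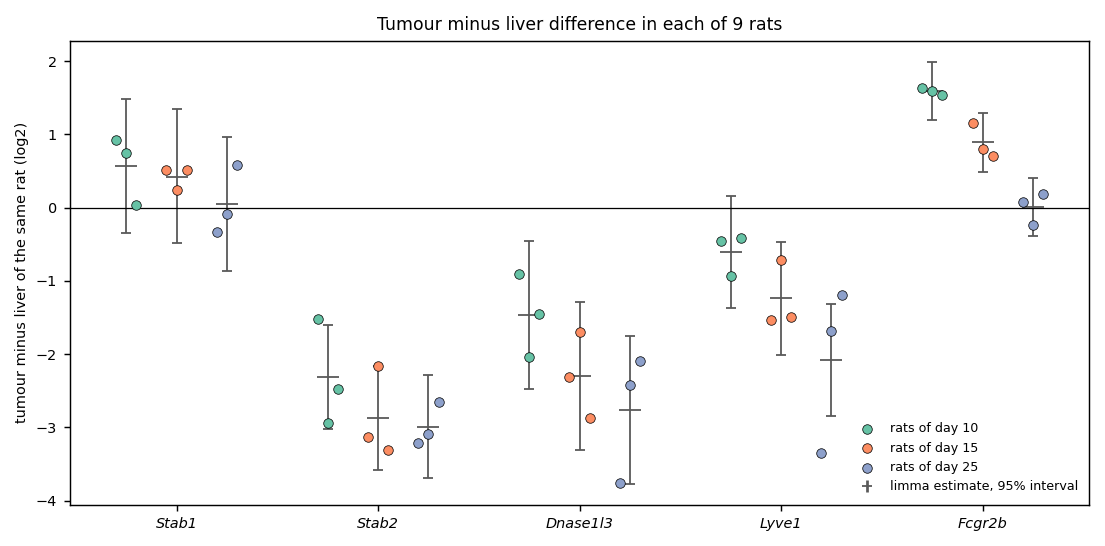
Tumour minus liver of the same rat (log2, vertical axis) for each marker, with 1 point per rat coloured by day. Bars give the limma estimate of the day with its 95% interval. The points of Stab2, Dnase1l3 and Lyve1 are all below 0, and those of Fcgr2b move from 1.54 to 1.63 at day 10 to between -0.24 and 0.18 at day 25.

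The markers were then followed across days. For Fcgr2b the tumour-liver difference was smaller at day 25 than at day 10 when tested as an interaction (-1.58, SE 0.27, adjusted p = 0.012). It was the 1 marker of 5 called, where 1.46% of all genes were called in that test, and 1.09% downward. In the liver Fcgr2b was higher at day 25 than at day 10 by 0.89 (SE 0.19, adjusted p = 0.0087), where 5.33% of all genes were called higher and 9.1% in either direction. All livers of day 25 lay above all of day 10, as for 15.1% of all genes. In the tumours it was lower at day 25 than at day 10 by 0.69 (-0.69, SE 0.19), which did not pass over all genes (adjusted p = 0.16), although the groups did not overlap, as for 15% of all genes. Between the same livers 3 of 12 macrophage and 2 of 9 Kupffer cell genes were higher at day 25 and 0 lower, among them Gpnmb (1.25), Cd68 (0.77), Cd163 (1.2) and Folr2 (1.08), and their part in the Fcgr2b rise was not tested. The remaining interactions were not called, namely Lyve1 at -1.48 (SE 0.51, adjusted p = 0.15), Dnase1l3 at -1.29 (SE 0.68), Stab2 at -0.67 (SE 0.47) and Stab1 at -0.52 (SE 0.61).

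No marker was called by limma between tumour days, and at an unadjusted p under 0.05 there were 0 of 5 from day 10 to 15, 0 from day 15 to 25 and 2 from day 10 to 25. There the fit called 0 of 14218 genes from day 10 to 15 and from day 15 to 25, with 2.46 and 8.45% at an unadjusted p under 0.05, and 8 genes (0.0563%) from day 10 to 25, with 17.2% unadjusted. Dnase1l3 was at -1.17 from day 10 to 25 (95% interval -2.18 to -0.16, adjusted p = 0.23), Lyve1 at -0.75 (-1.52 to 0.01, adjusted p = 0.3) and Stab2 at -0.03 (-0.74 to 0.67, adjusted p = 0.97). Without the day 25 tumour of rat 7, Dnase1l3 was at -0.53 (adjusted p = 0.8) and Lyve1 at -0.28 (adjusted p = 0.88). Without the 3 arrays that carried pancreatic transcripts (the tumours of rats 5 and 9 and the metastasis of rat 8), an alternative added after the data were seen, Dnase1l3 (-1.63, adjusted p = 0.029), Lyve1 (-1.11, adjusted p = 0.048) and Fcgr2b (-0.83, adjusted p = 0.034) were called lower at day 25. That fit called 1156 of 14218 genes, against 8 in the main fit. It left 2 tumours at day 25, 1 of them from rat 7. Without the arrays of rat 7, Stab1 and Stab2 changed sign between day 10 and 25 (0.12 and 0.33). In the liver no marker was called from day 10 to 15 or from day 15 to 25, where 0.0281 and 2.2% of all genes were (at an unadjusted p under 0.05, 0 and 1 of 5 markers and 10.1 and 15.3% of all genes), and Fcgr2b was the only one of the 5 called from day 10 to 25. Lyve1 was at 0.73 (SE 0.36, adjusted p = 0.23), with every day 25 liver above every day 10 liver, Stab2 at 0.64 (SE 0.33), Stab1 at 0.29 and Dnase1l3 at 0.12.

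The peritoneal metastases grew outside the liver and had the lowest hepatocyte signal of the 3 tissues. They were not free of it, with Alb at 7.64 to 9.51 against array medians of 5.98 to 6.06. The source of the marker levels in them was not tested. Stab2 was at 5.33, 4.99 and 5.36, below the median of all probe sets in each of the 3 arrays. Dnase1l3 was at 5.98, 7.25 and 6.06, close to that median in 2 of them. Lyve1 was at 8.52, 9.62 and 9.5, and Fcgr2b at 10.44, 10.92 and 11.3. These last 2 genes were thus measured far above the array median in every metastasis, at levels within or near the range of the tumours. Stab1 was at 6.21, 8.47 and 8.13, with rat 7 low and the others above every liver. The metastasis of rat 8, which had the highest Stab1, Lyve1 and Dnase1l3 of the 3, also carried pancreatic transcripts (Prss1, a trypsinogen gene, at 11.42), whose part in these values was not tested. Without it the differences from day 25 liver were 0.01 for Stab1, -2.08 for Lyve1 and -4.16 for Dnase1l3.

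Against the day 25 liver, 3 markers were lower in metastases, where 23.6% of all genes were called lower and 57% in either direction. All 3 were lower in every metastasis than in any day 25 liver, as for 25.7% of all genes. Stab2 was at -4.17 (18-fold, SE 0.33, adjusted p = 5e-08), Dnase1l3 at -3.75 (13.4-fold, SE 0.48, adjusted p = 5.8e-06) and Lyve1 at -1.88 (3.68-fold, SE 0.36, adjusted p = 0.00033). Fcgr2b (0.19, 95% interval -0.2 to 0.59) and Stab1 (0.44, -0.47 to 1.36) were not called. Stab1 was called without the metastasis of rat 7 (1.14, adjusted p = 0.0047). Against the day 25 tumours no marker was called by limma (1 of 5 at an unadjusted p under 0.05, against 6.07% of all genes), and 0.338% of all genes were. Stab2 was at -1.19 (SE 0.33, adjusted p = 0.29), lower in 3 of 3 rats (-0.37, -1.68 and -1.52) and with no overlap between the groups, as for 3.93% of all genes. It was called without the tumour of rat 7 (-1.55, adjusted p = 0.02). Dnase1l3 was lower in 3 of 3 rats (-0.17, -0.52 and -2.28), with an estimate of -0.99 (SE 0.48, adjusted p = 0.82), which ran from -1.63 without the tumour of rat 7 to -0.53 without that of rat 9. Lyve1 was at 0.2 (95% interval -0.56 to 0.97) and Fcgr2b at 0.19 (SE 0.19).

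The order of the 7 groups differed between markers. For Stab2 the 3 liver groups led, at 9.4 ± 0.45, 9.2 ± 0.11 and 8.77 ± 0.26 at days 25, 15 and 10 (SD, n = 3), of which days 25 and 15 did not differ beyond their spread. The tumour groups followed at 6.45, 6.42 and 6.33, closer to each other than their SDs of 0.51 to 0.63, and the metastases came last at 5.23 ± 0.2. Dnase1l3 had liver groups at 10.2, 10.18 and 10.06, which did not differ beyond their spread, then tumours at 8.59, 7.91 and 7.42 and metastases at 6.43, with neighbours from the day 10 tumours onward not differing beyond their spread. Lyve1 led with the day 25 liver (11.09 ± 0.29), set apart from day 15 (10.45 ± 0.15) and day 10 (10.36 ± 0.07), and its tumour and metastasis groups lay between 9.01 and 9.76 with overlapping arrays. Fcgr2b had the day 10 tumour on top (11.39 ± 0.07), then a run of groups from 11.03 to 10.69 in which neighbours did not differ beyond their spread, and at the bottom the livers of day 15 (10.14 ± 0.08) and day 10 (9.8 ± 0.12). For Stab1 no neighbouring groups differed beyond their spread, from 7.62 in the day 15 tumours to 6.88 in the day 10 livers.

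Hepatocyte signal moved with 3 of the markers among the tumour pieces, with exceptions. At day 10 the hepatocyte mean was lower in rat 1 than in rat 3 (11.04 against 11.15), as was Lyve1. Stab2 (6.95 against 6.48) and Dnase1l3 (8.89 against 8.78) were higher. At day 15 the mean was higher in rat 4 than in rat 6 (9.81 against 9.59), as was Dnase1l3. Stab2 (5.96 against 6) and Lyve1 (8.75 against 9.06) were lower. The tumour of rat 5 had the highest hepatocyte mean (11.51) and, within its day, the highest Stab2, Dnase1l3 and Lyve1 (7.02, 8.69 and 9.82). The tumour of rat 7 had the lowest hepatocyte mean (7.78) and the lowest Stab2, Dnase1l3 and Lyve1 of all 9 tumours (5.7, 6.15 and 8.07). It was also the lowest of the 9 in Stab1 (6.5) and in the mean levels of the other sinusoidal (7.7), general endothelial (7.31), lymphatic (6.07), Kupffer cell (6.76) and macrophage (8.84) genes. Its low values were thus not limited to hepatocyte genes, while its mean of the bile duct genes was the highest of the 9 tumours (11.58). The summed signal of the 14 hepatocyte genes was 50500 to 70700 in day 10 tumours, 34200 to 83100 at day 15, 8030 to 54200 at day 25, 2490 to 5190 in metastases, and 106000 to 136000 in livers, all on the linear scale. In metastases 6 of the 14 genes had means below the lowest array median. Of the 14, 13 were lower in tumour (median -2.37) and 0 were higher, with the tyrosine aminotransferase gene Tat at -3.7. The gene not called was Alb (-0.43, adjusted p = 0.2), whose levels of 14.4 to 14.62 in livers reach the top of the measured range, where differences are compressed. All 7 measured bile duct genes were higher (median 4.44). Of all genes 36.8% were called higher and 37.8% lower. The part of this signal in the differences of Stab2, Dnase1l3 and Lyve1 was not tested. Fcgr2b was higher in tumour than in liver at day 10 while hepatocyte signal was lower in the same pieces. In the metastases, where that signal was lowest, Lyve1 and Fcgr2b were at 9.21 ± 0.6 and 10.88 ± 0.43.

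**Figure D3:**
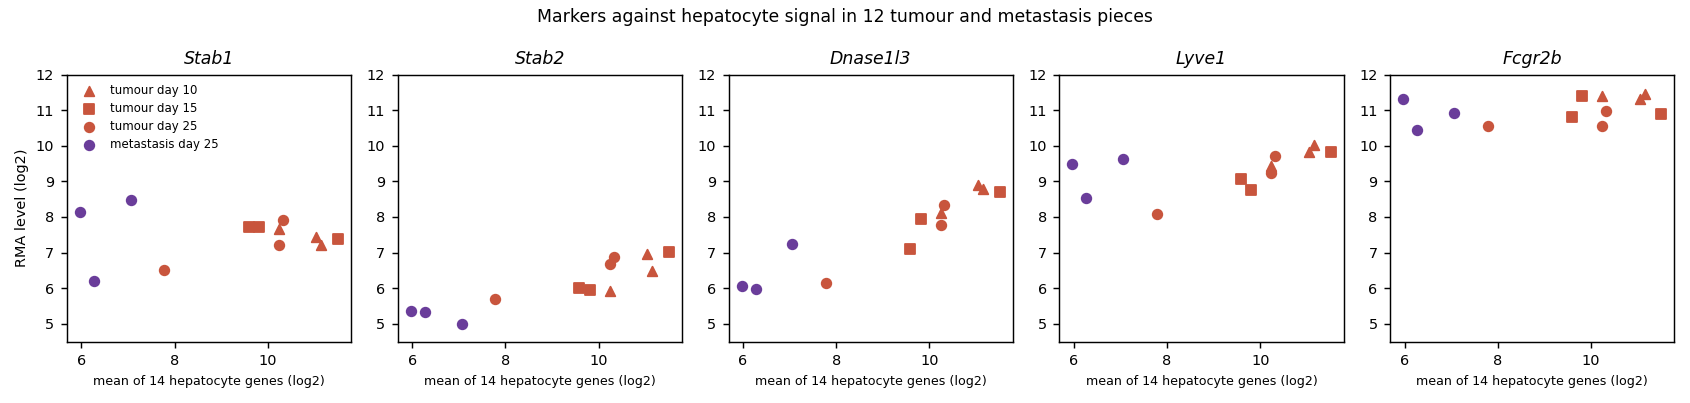
Level of each marker (RMA, log2, vertical axis) against the mean of 14 hepatocyte genes (log2, horizontal axis) in 9 tumours and 3 metastases, with 1 point per array; the tissues of day 25 share rats. Stab2 and Dnase1l3 have their lowest group means in the metastases (purple), where hepatocyte signal is lowest, but do not follow it point by point. Lyve1 and Fcgr2b in metastases lie within or near the range of tumours.

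Further genes of sinusoidal endothelium were mostly lower in tumour. Of 24 listed genes 21 were measured. Over all days 14 were lower, 3 higher and 4 not called (median -0.58, against -0.03 over all genes). Of all genes 37.8% were called lower and 36.8% higher. Gpr182, an orphan receptor of sinusoidal and lymphatic endothelium, was at -2.18 (SE 0.24, adjusted p = 3.6e-07), the fatty acid transporter gene Cd36 at -1.81 and the lectin gene Fcna at -1.59. Gata4, a transcription factor that specifies sinusoidal identity, was at -1.45, and Bmp2, a signal of the BMP family made by these cells, at -1.49. Ehd3, a membrane trafficking gene, was at -1.42. The 3 higher genes were the cytokine gene Il33 (1.75), Meis1 (1.06) and the mannose receptor gene Mrc1 (0.27). Maf, a transcription factor of sinusoidal endothelium, was at 0.14 (adjusted p = 0.52), with its other probe sets at -0.26 and -0.2. In metastases against day 25 livers 13 of the 21 were lower and 3 higher (median -1.07), where 23.6% of all genes were called lower. The mean level of the 21 genes was 8.73 to 9.07 over livers and 7.7 to 8.51 over tumours. Their summed signal overlapped between tumours and livers at days 10 and 15. In livers it was 14900 to 16200, 15900 to 21500 and 19800 to 23800 at days 10, 15 and 25. Tumours had 15300 to 16000, 14800 to 16500 and 8500 to 15800, and metastases 7800 to 16600. Of the 21 genes Cd36, Scarb1 and Il6st are also expressed by hepatocytes, and Mrc1, Maf and Fcna by macrophages. Fcna is counted again among the Kupffer cell genes, Flt4 among the lymphatic genes, and Mrc1, Cd36 and Scarb1 among the scavenger receptor genes.

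Genes of blood vessel endothelium in general were more often higher over all days. Of 21 measured genes 14 were higher, 2 lower and 5 not called (median 0.67), where 36.8% of all genes were called higher and 37.8% lower. Pecam1, the adhesion molecule of all endothelium, was higher by 0.83 (SE 0.17), Emcn by 1.67, Plvap, a diaphragm protein that sinusoids largely lack, by 0.8, the endothelial signalling gene Ecscr by 2.43 and the tight junction gene Cldn5 by 1.99. Sox17 (5.27; 3.51 and 0.04 by its other probe sets) and Cav1 (4.45), the largest increases of the list, are also expressed by epithelium or fibroblasts. Vwf, the clotting factor carrier that sinusoids hold at low level, was lower by -0.34, and Ptprb by -0.85. Eng was at -0.01 (adjusted p = 0.95). At days 10, 15 and 25 the higher calls were 15, 11 and 6 of the 21 and the lower calls 1, 1 and 2, where 30.4, 28.2 and 27.7% of all genes were higher, so the day 25 share was near that of all genes. In metastases against day 25 livers 5 were higher and 3 lower, where 57% of all genes were called in either direction. Their mean level was 6.72 to 7.19 over the liver arrays and 7.26 to 8.33 over tumours and metastases, with the tumour and metastasis of rat 7 (7.31 and 7.26) closest to the livers. The summed signal was 3060 to 4530 in livers and 8750 to 14000 in tumours and metastases. The sum did not follow the mean, since the metastasis of rat 7 had the lowest mean of the 12 and the highest sum. Of 8 lymphatic genes 2 were higher and 4 lower. Pdpn was at 2.55, Prox1, also a hepatocyte factor, at -2.78 (-0.51 by its other probe set), Reln at -1.59 and Ccl21 at 0.11 (SE 0.44).

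Macrophage genes were compared because Stab1, Lyve1 and Fcgr2b are shared with them. The counts are over all days, where 36.8% of all genes were called higher in tumour and 37.8% lower. Of 12 measured macrophage and monocyte genes 9 were higher in tumour and 0 lower (median 1.21), with the lysozyme gene Lyz2 at 2.73, Gpnmb at 2.3, the antigen presentation gene Cd74 at 2.04 and Csf1r at 0.42 (adjusted p = 0.087). Their summed signal was 5560 to 6400, 7760 to 9370 and 6450 to 9210 in livers of days 10, 15 and 25, and 31300 to 35100, 26100 to 38100 and 21700 to 29200 in tumours. Of 9 measured markers of Kupffer cells, the resident macrophages of sinusoids, 7 were lower and 1 higher (median -2.15). Cd5l was at -3.18, Clec4f at -2.85, Nr1h3 at -2.38, Folr2, also found on other tissue macrophages, at 0.91, and Id3 at 0.15 (adjusted p = 0.44). Their summed signal was 8980 to 14200 in livers, 1410 to 6430 in tumours and 1370 to 3280 in metastases. Of 5 measured B cell genes 2 were higher (Blnk at 2.77 and Fcer2 at 0.63) and 2 lower, and in every group at least 4 of the 5 had means below the lowest array median. The share of these cells in the levels of Fcgr2b, Lyve1 and Stab1 was not tested.

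The partners of each marker were read from lists by function. Their counts over all days stand beside 36.8% of all genes called higher and 37.8% lower. Among 8 Fc receptor and adaptor genes 4 were higher and 3 lower, with the polymeric immunoglobulin receptor gene Pigr at -2.36, Fcer1g, the signalling chain of activating receptors, at 1.86, Fcgr1a at 1.39, Fcgr3a at 0.46 (adjusted p = 0.044) and Inpp5d, the phosphatase that acts downstream of Fcgr2b, at 0.66. The interaction was called for Fcer1g (-1.03, SE 0.25, adjusted p = 0.047) and not for Fcgr3a (-1.44, SE 0.48, adjusted p = 0.14). Among 13 hyaluronan genes 6 were higher and 6 lower (median -0.09). Cd44, the hyaluronan receptor of epithelium and leukocytes, was at 4.2, the hyaluronan-binding proteoglycan gene Vcan at 4.09, Tnfaip6 at 3.06 (-0.21 by its other probe set), the synthase gene Has2 at 0.89, Hyal3 at -1.39 and the hyaluronan-degrading factor gene Cemip at -0.09 (adjusted p = 0.56). For Vcan 1 of 5 probe sets was at -0.06 and the others at 3.01 to 5.34. Both hyaluronan receptors of sinusoids were thus lower in tumours in which Cd44 was higher.

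Of 11 scavenger receptor genes 4 were higher and 5 lower, led by the oxidised lipoprotein receptor gene Olr1 at 4.38 and Colec12 at 3.16, with Cd36 at -1.81, Scarb1 at -1.03, Lrp1 at -0.76 and Scarf1 at -0.13 (adjusted p = 0.061). Among 5 proteins bound by stabilins, the matrix genes Postn and Sparc were at 8.05 and 2.54, Gdf15 at -0.42 and Tgfbi at 0.13 (adjusted p = 0.62). Of 8 deoxyribonuclease genes 2 were higher and 3 lower. With 36.8% of all genes called higher and 37.8% lower, the counts of these short lists say little about them. The lysosomal gene Dnase2 was at 0.92, Dnase2b at -1.32, Endog, of mitochondria, at -0.59, and Trex1 at 0.04 (adjusted p = 0.57). Dnase1l3 itself was at -2.17.

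**Figure D4:**
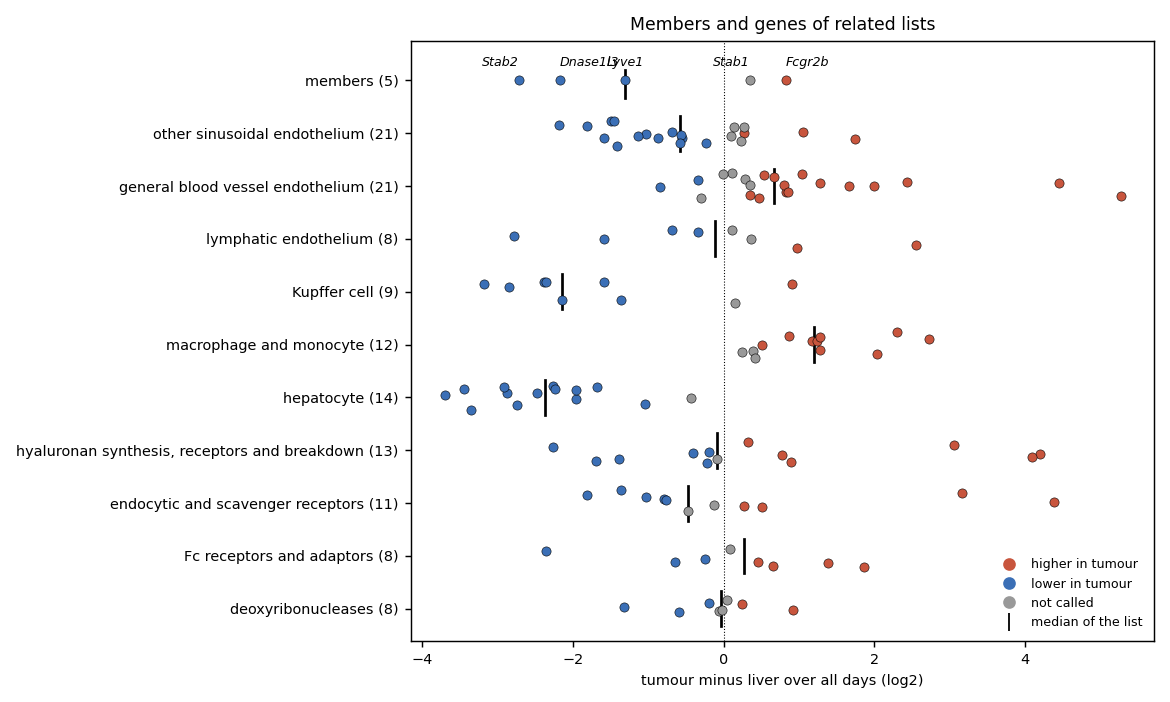
Tumour minus liver over all days (log2, horizontal axis) for the 5 markers and for 10 lists of related genes (rows, with the number of measured genes). Each point is a gene coloured by its limma call, and black lines are list medians. Sinusoidal genes lie mostly below 0 (median -0.58) and general endothelial genes mostly above (median 0.67).

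The markers also differed in which genes resembled them most across the 21 arrays, given here as Pearson correlations that mostly restate the contrast of liver with tumour. Genes with provisional names, such as those that start with LOC, were left out. Stab2 was most like Dpy19l3, Fgfr4 and Acad11 (r = 0.988, 0.986 and 0.982), and Dnase1l3 most like Slc16a12, Pecr and Chpt1 (0.99, 0.989 and 0.987). Lyve1 was most like Fcna (0.964), Man2a1 (0.94) and St3gal1 (0.934). Fcgr2b was most like Npl, Mnda and Folr2 (0.953, 0.942 and 0.938), and Stab1 most like Plvap, Ext2 and Daglb (0.875, 0.867 and 0.859). Over the 9 livers alone the nearest genes were others, such as Sulf1 for Stab1 (0.983), Sema6a for Stab2 (0.974), Ints6l for Dnase1l3 (0.909), Nol8 and Mrc1 for Lyve1 (0.989 and 0.983) and Csf2rb for Fcgr2b (0.988). Between markers, the correlation over 21 arrays was 0.93 for Stab2 with Dnase1l3, 0.85 for Stab2 with Lyve1, 0.88 for Dnase1l3 with Lyve1 and 0.59 for Stab1 with Fcgr2b, and -0.6 for Stab2 with Fcgr2b. Over the 9 livers Stab2 and Fcgr2b were at 0.82, so their opposite course across tissues was not seen among livers. Arrays of 1 rat and of 1 group share their source, and with 9 arrays many of 14218 genes reach a high value.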

How the data were processed

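Per the labels, total RNA of snap-frozen tissue was labelled with biotin as cRNA and hybridised to Affymetrix rat arrays, 1 per sample. The authors deposited a table of RMA levels on the log2 scale, per the submitters' processing notes, for 31099 probe sets. The program that ran RMA was not given in the sources used here. No detection calls or scan dates came with it, so signal was not parted from background and batches were not analysed here. Arrays have no read depth, and 3 arrays per group limit the precision.

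Gene names came from the platform annotation (20832 probe sets with 1 symbol, 436 with several, 9831 unlisted), updated by gene identifier in a GRCr8 gene table for 20764. The probe set of highest mean stood for a gene. Group means of all 21 arrays were compared with limma 3.58.1 in R 4.3.3 (lmFit, eBayes), adjusted over 14218 genes, in 13 comparisons. The script was tested on simulated data. The rat number in the labels ties each liver and metastasis to its tumour. Deviations from group means of tumour and liver of a rat correlated at 0.04 to 0.3. Those of tumour and metastasis correlated at 0.58, 0.11 and 0.04 in rats 7, 8 and 9. A fit with the rat as a block (correlation 0.136) changed no call of a marker. The 5 markers and the lists were chosen with earlier results of these data known. From each list the rule named up to 3 called genes with the largest change over all days and the highest uncalled gene. For each marker it named the 3 genes of highest correlation, leaving out provisional names. Other list genes were named after their values were seen. Alternatives covered normalization, probe sets, a filter on low genes, the arrays fitted, the prior, and each array left out.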

Additional observations from a re-analysis of the deposited data

Results flagged for a closer look

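Fcgr2b stood out because its tumour-liver difference itself differed between days, by -1.58 from day 10 to day 25 (SE 0.27, adjusted p = 0.012 by limma). The within-rat differences were 1.63, 1.59 and 1.54 at day 10, 1.16, 0.8 and 0.71 at day 15, and 0.08, -0.24 and 0.18 at day 25. Those of days 10 and 25 come from the arrays that gave the interaction and add no separate support. With the rat as a block the adjusted p was 0.0044. With 1 array left out in turn it ran from -1.73 to -1.51 (adjusted p 0.013 to 0.044). In the same test 2 of 12 macrophage genes (median -1.03) and 1 of 9 Kupffer cell genes (median -1.17) were called, all lower. Of 14 hepatocyte genes 0 were called (median -1.08). Over all genes 1.46% were called and the median was 0.01. The median tumour-liver difference at days 10 and 25 was 1.64 and 0.77 for macrophage genes, a smaller gap. It was -1.59 and -2.45 for Kupffer cell genes and -1.95 and -2.88 for hepatocyte genes, wider gaps. The part of these cells in the Fcgr2b change was not tested.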

How the results depend on the processing

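Of 1130 comparisons of a marker under an alternative, 1074 kept their direction and their side of the threshold, 14 became called, 2 lost their call and 40 changed sign. Every change of sign was in a difference not called in the main fit. The fit with the rat as a replicate block changed no call of a marker; it called 402 genes in the interaction against 208, and 1 gene from liver day 10 to 15 against 4. The arrays with pancreatic transcripts and those of rat 7 were left out after the data were seen.

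For tumour against liver at day 25, Stab1 was at -0.06 after a second quantile normalization and -0.3 without the pancreatic arrays, and Fcgr2b was at -0.03 with arrays centred on their median, -0.14 without the pancreatic arrays and -0.03 without rat 7. Without rat 7, the tumour change from day 15 to 25 was 0.15 for Dnase1l3 and 0.27 for Lyve1, that from day 10 to 25 was 0.12 for Stab1 and 0.33 for Stab2, and the liver change from day 15 to 25 was 0.13 for Stab1 and 0.11 for Dnase1l3. The last was 0.05 after the second normalization. The mean of both Lyve1 probe sets gave -0.02 from liver day 10 to 15. The causes were not tested.

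At day 10, 5 of 5 markers were called against 3 both with only the groups compared and without rat 7, where 65.1 and 64.4% of all genes were called against 58.4%. Without rat 7, 1 marker was called between metastasis and tumour, where 187 of 14218 genes were. Without the pancreatic arrays 3 markers were called from tumour day 10 to 25 and 2 in the interaction. The same fit called 1156 and 412 of all genes there, against 8 and 208 in the main fit.

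Testing every probe set, with more features tested, called 21490 over all days, 15963, 13170 and 12373 at days 10, 15 and 25, 14955 for metastasis against liver, 1 from tumour day 15 to 25 and 2 from liver day 10 to 15. With only the groups compared, and so fewer arrays, 1 gene was called between metastasis and tumour, 0 from tumour day 10 to 25, 0 from liver day 10 to 15, 2 from liver day 15 to 25 and 557 from liver day 10 to 25. Without the pancreatic arrays the counts were 19 for metastasis against tumour, 1156 from tumour day 10 to 25, 0 from liver day 10 to 15 and 412 in the interaction. Without rat 7 they were 187 for metastasis against tumour and 8 from liver day 10 to 15. From liver day 10 to 15 the remaining settings gave 2 (second normalization; trend and robust prior), 1 (mean of probe sets) and 0 (low genes left out).

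With 1 array left out in turn, Stab1 ran from -0.3 to 0.41 and Fcgr2b from -0.14 to 0.08 for tumour against liver at day 25. Metastasis against tumour ran from -0.05 to 1.09 for Stab1, -0.27 to 0.56 for Lyve1 and -0.02 to 0.41 for Fcgr2b, and metastasis against liver from -0.01 to 0.42 for Fcgr2b. Between tumour days, Stab2 ran from -0.47 to 0.12 (day 10 to 15), -0.14 to 0.45 (day 15 to 25) and -0.29 to 0.33 (day 10 to 25), Dnase1l3 from -1.63 to -0.53 and Lyve1 from -1.11 to -0.28 (both day 10 to 25), Dnase1l3 from -0.94 to 0.15 and Lyve1 from -0.56 to 0.27 (both day 15 to 25), and Stab1 from -0.59 to 0.12 (day 10 to 25). Between liver days, Stab1 ran from -0.12 to 0.13 and Dnase1l3 from -0.15 to 0.11 (day 15 to 25), and Dnase1l3 from -0.01 to 0.25 (day 10 to 25). Markers called between metastasis and tumour ranged from 0 to 1. Genes called ranged from 21 to 220 for metastasis against tumour, the higher count without the day 25 tumour of rat 7. They ranged from 0 to 1, 0 to 7 and 0 to 159 between tumour days 10 and 15, 15 and 25, and 10 and 25, and from 0 to 196, 155 to 522 and 626 to 1651 between the same liver days. In the interaction they ranged from 30 to 402, the lower count without the tumour of rat 3 and the higher without the liver of rat 9. A group left with 2 arrays keeps the spread pooled over all groups.

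Levels near the array median, such as Stab2 in metastases, cannot be told from background here, so folds for them are limited by the signal.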

Other observations

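Between livers of day 10 and day 25, other genes of the lists were called with Fcgr2b; they are named after their values were seen. Olr1, the receptor for oxidised lipoprotein, was higher by 2.89 (SE 0.39, adjusted p = 0.00055 by limma), the lymphatic chemokine gene Ccl21 by 2.9 (SE 0.76, adjusted p = 0.025), Vwf by 1.04 (SE 0.18, adjusted p = 0.003), Nrp2, a coreceptor of lymphatic and venous endothelium, by 0.71 (adjusted p = 0.017) and Mrc1 by 0.58 (adjusted p = 0.023). In the tumours the same interval gave -0.17 for Olr1, -1.86 for Ccl21, -0.03 for Vwf and -0.03 for Mrc1, none of them called. The difference between the tissues was called for Olr1 (-3.05, adjusted p = 0.019), Ccl21 (-4.77, adjusted p = 0.041) and Vwf (-1.06, adjusted p = 0.047), and not for Mrc1 (-0.6, adjusted p = 0.15). Over the 9 livers Olr1 had the third-highest correlation with Fcgr2b of the genes without a provisional name (r = 0.973). The bile duct keratin gene Krt19 ranged from 4.86 to 5.42 in livers of day 10, 5.73 to 6.46 at day 15 and 4.98 to 7.77 at day 25. The mean of the 7 bile duct genes was 5.72 to 5.87 at day 10 and 6.31 to 6.58 at day 15. At day 25 it was 7.13, 6.09 and 5.72 in rats 7, 8 and 9. From day 10 to day 25 Cd24 was higher by 1.77 (adjusted p = 0.038 by limma).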
